A study of Mus musculus with 31 samples.

Results

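Inner and outer olfactory nerve layer (ONL) of mouse embryos at E16.5 were compared across all genes. The comparison used the 8 libraries labelled with these names, 4 for each part, of 31 in the whole series. They were chosen by label alone, and all genes passing an expression filter entered the test, which left 15717 of the 47729 genes in the count table. The embryos carried the Sox10:H2BVenus transgene, in which Sox10 regulatory sequence drives a nuclear fluorescent protein in neural crest-derived glia, and its fluorescence guided the dissection. Tissue was cut by laser from cryosections and pieces from several sections were pooled for each library. Inner ONL was the part closest to the olfactory bulb and outer ONL the part furthest from it, and no boundary visible in the tissue separated them. Neither group was treated, and strain and sex are not given in the sources used here. By the study's methods samples of this stage came from 4 embryos, and each ONL part is given as 4 libraries from 4 embryos. The paper also shows inner and outer pieces cut from the same section. By this account both groups hold the same embryos, so inner and outer libraries are not independent of each other. Whether a replicate number marks an embryo is not stated, and the main test takes the libraries as unpaired. Its p-values ignore the sharing of embryos and describe the spread between these libraries.

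The ONL is the outermost layer of the olfactory bulb. In it, the axons of olfactory sensory neurons arrive from the nasal cavity, defasciculate and sort before they enter the glomeruli. Olfactory ensheathing cells (OECs), glia that derive from the neural crest, surround bundles of these axons from the nasal mucosa to the ONL. The inner face of the ONL lies against the developing glomerular and mitral cell layers of the bulb, and the outer face lies against the meninges and the mesenchyme and cartilage below the brain.

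The 8 libraries held 13379107 to 16800784 counted reads, with 20428 to 22747 genes detected, so that depth was similar in both groups. Mitochondrial genes took 0.441% to 1.13% of the reads and ribosomal protein genes 1.07% to 1.94%. On the first principal component of the 500 most variable genes, which held 88.1% of their variance, inner libraries lay between 12.9 and 27.4 and outer libraries between -32.4 and -11.0. Xist stood at 192 CPM in inner replicate 3 and at 156 CPM in outer replicate 3, both with the Y-linked gene Ddx3y at 0, and at 0 to 0.582 CPM in the other libraries. Replicates of a group differed from each other by more than counting error.

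Of the 15717 genes tested, 2831 were called at an adjusted p under 0.05, which is 18.0%. In inner ONL 1623 genes (10.3%) were higher and 1208 (7.69%) were lower than in outer ONL. The median log2 fold change was 1.77 among the genes called higher, -1.18 among those called lower and -0.04 among all genes tested. A difference of at least 8-fold was reached by 190 of the genes called higher and 70 of those called lower. The 4 inner and 4 outer libraries did not overlap for 3392 genes (21.6% of those tested), of which 2574 were called. Calls rest on the quasi-likelihood test of edgeR, adjusted over all tested genes by the method of Benjamini and Hochberg, and levels are CPM, the count of a gene scaled to a common library size with TMM factors. When all 31 libraries were fitted together the test called 1658 genes, 1007 higher and 651 lower. That fit takes in libraries of earlier stages. By earlier results, not shown here, their labels conflict with the study's means, and a link to the calls was not tested. In that fit 52 of the genes named below lost their call with little change in fold, among them Nts (adjusted p = 0.224), Th (0.113), Gad1 (0.203), S100b (0.175), Omp (0.273), Dcn (0.0548) and Wnt7a (0.364). Exons of L1cam, Gpc5, Amer3, Grm2, Reln, Dlx1, Map2, Grin1, Gria3, Slc1a2, Fgfr3, Alx1, Aspn, Col3a1, Col5a1, Lama2, Nid2, Ramp2, Egfl7, Tagln, Des, Cx3cr1, P2ry12, Sfrp2, Dll1, Notch1, Nmb and Penk overlap those of another gene, and whether reads were counted by strand is not given in the sources used here.

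**Figure D1:**
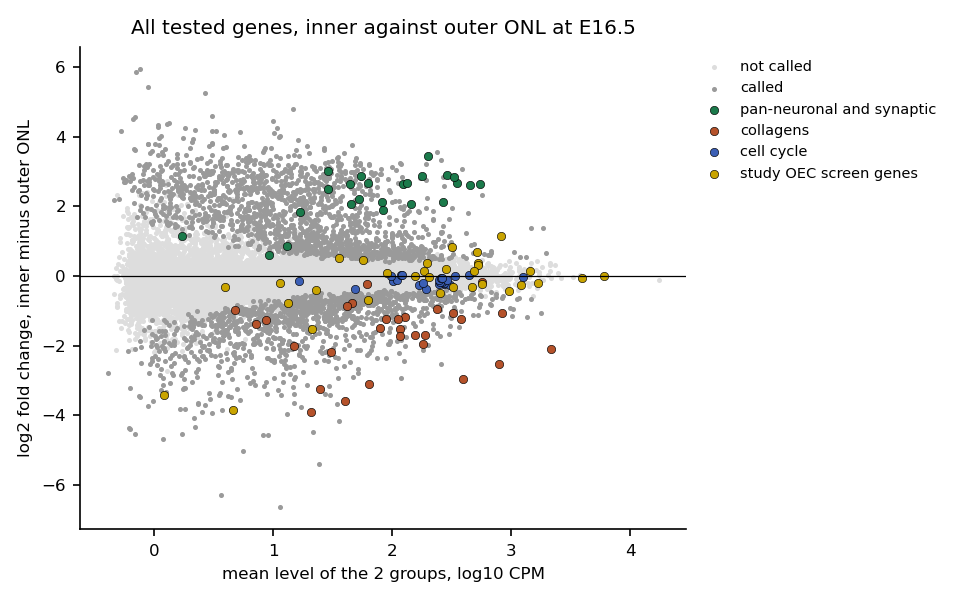
Each point is a tested gene, with its mean level over the groups (log10 CPM) on the horizontal axis and its log2 fold change, inner minus outer ONL, on the vertical axis. Dark grey points are the 2831 called genes, and coloured points are members of 4 gene lists: the pan-neuronal genes lie above 0, the collagens below 0 and the cell cycle genes close to 0.

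Nearly all tested genes of the bulb neuron and pan-neuronal lists were called higher in inner ONL, against 10.3% of all tested genes. Of 14 tested genes of bulb projection neurons (mitral and tufted cells), 13 were called higher in inner ONL and 0 lower, with a median log2 fold change of 3.24. Of 13 tested genes of bulb interneurons all 13 were called higher, with a median of 2.50. Of 24 pan-neuronal and synaptic genes, 22 were called higher and 0 lower, with a median of 2.63. In bulk tissue, fewer cells of a type and less RNA per cell cannot be told apart.

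Among projection neuron genes, Nts encodes the neuropeptide neurotensin (chromosome 10, 102481756 to 102490486 in mm10). It stood at 343, 720, 402 and 285 CPM in inner replicates 1 to 4, and at 2.19, 78.7, 4.59 and 62.2 CPM in outer replicates 1 to 4. The groups did not overlap, although outer replicates 2 and 4 stood well above outer replicates 1 and 3. The log2 fold change was 3.56 ± 0.85 (SE, adjusted p = 0.0106). Reln, which encodes the secreted glycoprotein reelin made by mitral cells, showed the same order of outer libraries. Its levels were 307, 509, 272 and 243 CPM in inner and 5.11, 101, 32.6 and 56.1 CPM in outer ONL, a log2 fold change of 2.77 ± 0.60 (SE, adjusted p = 0.00636). Cdhr1, a cadherin-related gene of mitral and tufted cells, had a mean of 465 CPM in inner and 45.9 CPM in outer ONL. For Slc17a7, which encodes a vesicular glutamate transporter, the levels were 92.7, 77.7, 73.6 and 44.8 CPM in inner ONL. In outer ONL they were 0.365, 9.40, 0.932 and 13.9 CPM, and the log2 fold change was 3.53 ± 0.73 (SE, adjusted p = 0.00488). The other vesicular glutamate transporter of forebrain, Slc17a6, rose with a log2 fold change of 3.30. The transcription factor genes Tbr1, Neurod2 and Neurod6, all active in cortical projection neurons, had log2 fold changes of 3.02, 4.25 and 3.67.

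Interneuron genes differed less in size but were as regular. Th encodes tyrosine hydroxylase, the rate-limiting enzyme of dopamine synthesis. It stood at 97.1, 95.3, 102 and 90.9 CPM in inner ONL and at 7.66, 20, 2.66 and 24.0 CPM in outer ONL. Every inner library lay within a narrow range above every outer library, and the log2 fold change was 2.82 ± 0.48 (SE, adjusted p = 0.00167). Gad1, which encodes an enzyme that makes GABA, had means of 66.0 CPM in inner and 11.0 CPM in outer ONL. Calb2, the gene of the calcium-binding protein calretinin, had means of 112 and 18.3 CPM and was also a member of the olfactory sensory neuron list. Dlx1, a homeobox gene of forebrain interneurons, rose with a log2 fold change of 2.50. Etv1, an ETS transcription factor gene, had the smallest difference of the 13, at 1.17 ± 0.21 (SE, adjusted p = 0.00241).

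**Figure D2:**
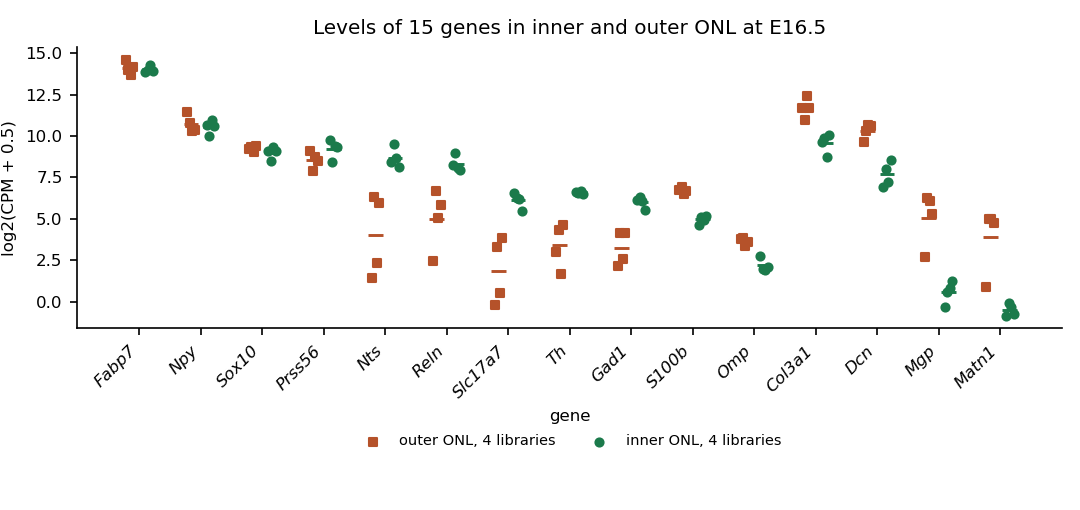
Levels of 15 genes as log2(CPM + 0.5) in each of 4 outer (squares) and 4 inner (circles) ONL libraries, with horizontal bars at the means. The OEC genes Fabp7, Npy, Sox10 and Prss56 overlap between groups, Nts to Gad1 are higher in every inner library, and S100b to Matn1 are higher in every outer library.

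Genes of the synapse and cytoskeleton that neurons share were higher by about the same amount. Snap25, a SNARE protein gene, stood at 227, 300, 184 and 143 CPM in inner and at 9.42, 62.2, 18.7 and 44.7 CPM in outer ONL, a log2 fold change of 2.66 ± 0.46 (SE, adjusted p = 0.00195). Map2, which encodes a microtubule protein of dendrites, differed by 2.12 ± 0.21 (SE, adjusted p = 0.000304), and Vamp2, another SNARE gene, by 2.06 ± 0.20 with the same adjusted p. Camk2b, a subunit of a calcium-dependent kinase, had a log2 fold change of 2.23. Gap43, a gene of growing axons, had means of 940 and 150 CPM. Of 26 glutamate and GABA receptor genes, 19 (73.1%) were called higher in inner ONL and 1 (3.85%) lower. Among all tested genes these shares were 10.3% and 7.69%. The median log2 fold change of the 26 was 2.40. In the fit of all 31 libraries 10 of them were higher and 1 lower. The GABA-A receptor subunit gene Gabra3 had a log2 fold change of 2.17, and the NMDA receptor subunit gene Grin1 had 3.00. The exception, Gria3, a subunit of AMPA receptors, had levels of 12.4 to 21.6 CPM in inner and 26.2 to 51.9 CPM in outer ONL, a log2 fold change of -1.19 ± 0.25 (SE, adjusted p = 0.00522).

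Among called protein-coding genes whose groups did not overlap and whose higher mean reached 20 CPM, the 15 with the largest rise in inner ONL included Cdh7, Gpc5, Amer3, Syt2, Grm2, Slc6a15, Sez6, Neurod6, Lrfn5, Cacng5, Nts, AI593442, Slc17a7 and Atp6ap1l. Several encode proteins of synapses, among them Syt2 (a calcium sensor of vesicle release), Grm2 (a metabotropic glutamate receptor), Lrfn5 (an adhesion protein) and Cacng5 (an auxiliary subunit of AMPA receptors). Cdh7, a cadherin gene, led with 20.7, 47.0, 25.1 and 20.8 CPM in inner ONL. Outer replicates 1 and 3 held 0 and 0.133 CPM of it, and outer replicates 2 and 4 held 1.94 and 1.86 CPM. Its log2 fold change was 4.79 ± 0.70 (SE, adjusted p = 0.000786). Slc6a15, a transporter of neutral amino acids, had means of 84.9 and 6.21 CPM, and Sez6, a transmembrane gene of neurons, had 35.6 and 2.64 CPM.

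The amount of neuronal RNA differed among outer libraries. The pan-neuronal list summed to 4111 to 7875 CPM in the inner libraries. In outer replicates 1 to 4 it summed to 397, 1879, 441 and 1291 CPM, so that replicates 2 and 4 held more than replicates 1 and 3. Projection neuron genes summed to 1048 to 2332 CPM in inner and to 15, 356, 58.2 and 251 CPM in outer ONL, in the same order. Both sums were lower in every outer library than in any inner library, and their part in the result of any gene above was not tested. With a library left out, 11 to 13 projection neuron genes, 11 to 13 interneuron genes and 21 to 23 pan-neuronal genes were called higher. Fitting all 31 libraries together gave 6, 7 and 21.

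**Figure D3:**
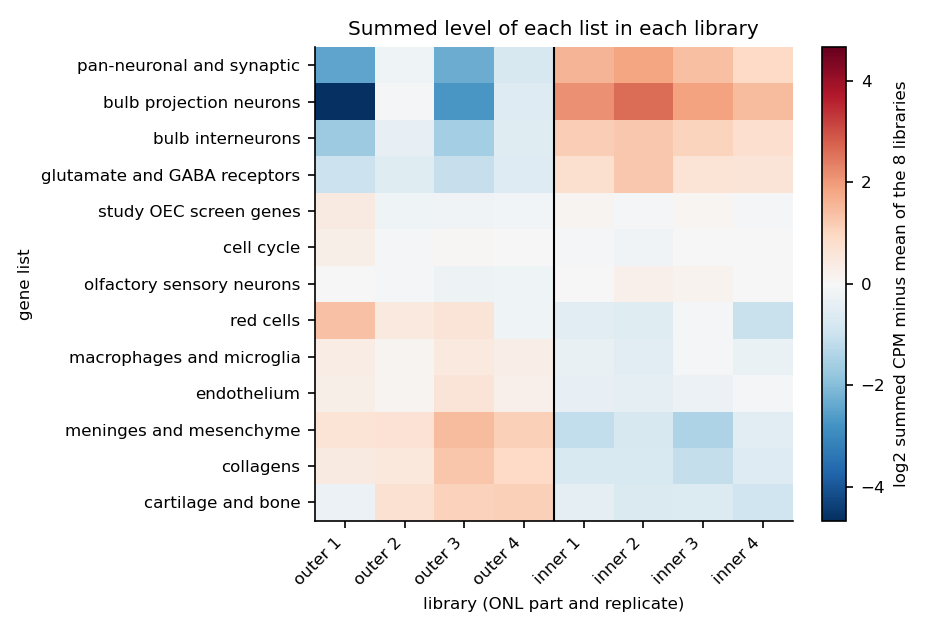
Summed level of 13 gene lists (rows) in each of the 8 libraries (columns), as log2 summed CPM minus the mean of the 8 libraries, with red above and blue below that mean. Neuronal lists are red in all inner libraries and least blue in outer replicates 2 and 4, and the meninges and collagen lists are red in all outer libraries.

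Genes of dividing cells, progenitors and astrocytes did not follow the neurons. Of 24 cell cycle genes, 0 were called by edgeR's quasi-likelihood test and 0 by DESeq2, 2 had an unadjusted p under 0.05, and the median log2 fold change was -0.15. Mki67, a proliferation marker, stood at 148, 272, 256 and 275 CPM in inner and 226, 271, 240 and 284 CPM in outer ONL. The log2 fold change was -0.10 with a 95% interval of -0.51 to 0.31, and it was 0.06 without inner ONL replicate 1. Without outer ONL replicate 2, 4 forebrain progenitor genes were called higher. In the main comparison, of 11 tested genes of forebrain progenitors and radial glia, 2 (18.2%) were called higher, Pax6 (2.63) and Emx1 (2.93). The intermediate filament gene Vim (-0.58) was the 1 (9.09%) called lower. The shares of all tested genes were 10.3% and 7.69%. Pax6 is also a transcription factor gene of bulb interneurons and stands in that list too. Of 8 tested astrocyte genes, Slc1a2, a glutamate transporter gene also present in embryonic neurons, was higher with a log2 fold change of 3.00. The water channel gene Aqp4 (-1.32), the gap junction gene Gja1 (-0.82) and the growth factor receptor gene Fgfr3 (-2.31) were lower. The call of Fgfr3 was lost without outer ONL replicates 2, 3 or 4 and without inner ONL replicates 1, 3 or 4, each left out in turn, with adjusted p of 0.0514 to 0.0819, and with the replicate number as a block (0.055). In the fit of all 31 libraries, 0 of the astrocyte genes were called lower and 1 of the progenitor genes higher.

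The defining genes of OECs had similar levels in both parts. Sox10, the transcription factor gene of neural crest-derived glia, stood at 549, 355, 638 and 541 CPM in inner and at 593, 651, 535 and 679 CPM in outer ONL. The groups overlapped, and the log2 fold change was -0.24 with a 95% interval of -0.62 to 0.15 (adjusted p = 0.444). The fatty acid-binding protein gene Fabp7 had a mean of 16745 CPM in inner and 18017 CPM in outer ONL, with an interval of -0.53 to 0.32. These genes were present at high levels in all 8 libraries.

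Npy and Prss56, genes associated with OECs of the ONL, were also not called. By in situ hybridization at E16.5 the paper found Prss56 only in OECs of the inner ONL, and Npy mostly there. It states that the inner and outer pieces did not separate these OEC populations, so levels here do not describe each population alone. Npy, which encodes neuropeptide Y, stood at 1649, 1022, 1991 and 1582 CPM in inner and at 2773, 1782, 1252 and 1331 CPM in outer ONL. Outer replicate 1 was the highest library, and the log2 fold change of -0.19 (95% interval -0.76 to 0.37) became 0.11 without it. For Prss56, a serine protease gene, the levels were 877, 344, 683 and 633 CPM in inner and 551, 236, 421 and 360 CPM in outer ONL. Its log2 fold change was 0.70 ± 0.28 (SE, adjusted p = 0.12). It was called without inner ONL replicate 2 (0.91) and without outer ONL replicate 1 (0.92), and also with no filter on low counts (0.72) or with the replicate number as a block (0.68). The secreted Wnt antagonist gene Frzb had means of 590 and 458 CPM, a difference of 0.37 ± 0.19 (SE, adjusted p = 0.237), and was called without outer ONL replicate 1 (0.56).

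Of 17 tested glial genes of OECs and Schwann cells, 1 (5.88%) was called higher in inner ONL and 6 (35.3%) lower. Among all tested genes these shares were 10.3% and 7.69%. The median log2 fold change of the 17 was -0.30. The largest differences were in genes that are also found in Schwann cells. S100b, which encodes a calcium-binding protein (chromosome 10, 76253853 to 76261159), stood at 24.8, 33.8, 30.2 and 35.9 CPM in inner and at 106, 121, 89.1 and 103 CPM in outer ONL. The groups were far apart, with little spread in either, and the log2 fold change was -1.75 ± 0.16 (SE, adjusted p = 0.000304). Ngfr, the gene of the low-affinity neurotrophin receptor p75, was at 3.98 to 5.36 CPM in inner and 8.90 to 17.0 CPM in outer ONL, a log2 fold change of -1.47 ± 0.26 (SE, adjusted p = 0.00207). Gfra3, which encodes the co-receptor for artemin, stood at 0.994, 8.10, 2.08 and 4.56 CPM in inner and 2.70, 33.4, 42.3 and 16.8 CPM in outer ONL. Outer replicate 1 was as low as the inner libraries, and the log2 fold change was -2.60 ± 0.72 (SE, adjusted p = 0.0227).

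Erbb3, a receptor gene for neuregulins, and Ednrb, the endothelin receptor B gene, were lower in inner ONL by smaller amounts, with log2 fold changes of -0.69 ± 0.19 and -0.79 ± 0.23 (SE, adjusted p = 0.0252 and 0.0300). The calls of these receptor genes rested on few libraries. Gfra3 lost its call without outer ONL replicate 3, inner ONL replicate 1 or inner ONL replicate 3, and Erbb3 without outer ONL replicates 1 or 3 or inner ONL replicates 2 or 3. Ednrb lost it without outer ONL replicates 1 or 3 or inner ONL replicates 2, 3 or 4. Without outer ONL replicate 3 or inner ONL replicate 3, and in the fit of all 31 libraries, 3 of the 17 genes were called lower. Without outer ONL replicate 1, 3 were called higher, and without inner ONL replicate 2, 2 were. L1cam, an adhesion gene of axons as well as glia, was the member called higher, at 32.4 to 72.7 CPM in inner and 3.5 to 18.9 CPM in outer ONL, a log2 fold change of 2.42 ± 0.48 (SE, adjusted p = 0.00396). Outer replicates 2 and 4 held the most L1cam of that group, as they did for neuronal genes, and a link was not tested.

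The study examined 32 genes in OECs and Schwann cells, some of them markers known before and others chosen on these samples. They are therefore no independent evidence of a direction. Of the 32, 25 were not called, 2 (6.25%) were called higher and 5 (15.6%) lower. Of all tested genes 10.3% were called higher and 7.69% lower. The median log2 fold change was -0.04, that of all genes tested. Dpysl3, a cytoskeletal gene of growing axons, was higher in inner ONL at 855 to 1305 CPM against 370 to 687 CPM. The log2 fold change was 1.16 ± 0.22 (SE, adjusted p = 0.00286). By in situ hybridization the paper found Dpysl3 in OECs and also very strongly in the olfactory bulb. Nkd2, an inhibitor of Wnt signalling, was also higher, by 0.82 ± 0.22 (SE, adjusted p = 0.0213), a call lost without outer ONL replicates 2, 3 or 4 or inner ONL replicate 1. Sema3b, a secreted guidance gene, stood at 12.1, 13.3, 8.02 and 9.69 CPM in inner and 26.4, 39.4, 35.3 and 23.2 CPM in outer ONL. The groups did not overlap and the log2 fold change was -1.53 ± 0.23 (SE, adjusted p = 0.00101). By in situ hybridization the paper found Sema3b in OECs of the nasal mucosa and in Schwann cells, but not in OECs of the ONL.

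Sostdc1, which encodes a secreted antagonist of BMP and Wnt signals, was at 0.0743 to 1.69 CPM in inner and 1.24 to 14.8 CPM in outer ONL. Its log2 fold change was -3.84 ± 0.79 (SE, adjusted p = 0.00463). The paper did not see Sostdc1 in OECs of the ONL either. Which cells gave the reads of Dpysl3, Sema3b and Sostdc1 was not tested. Sema6a, a membrane semaphorin gene, was lower by a small amount, -0.49 ± 0.15 (SE, adjusted p = 0.0436). Sema6a lost its call without outer ONL replicates 3 or 4 or inner ONL replicates 1, 2 or 3. With each library left out in turn, 1 to 5 of the 32 genes were called higher and 3 to 5 lower. The value of 5 higher came without outer ONL replicate 1, and 4 were called higher without inner ONL replicate 2. Without outer ONL replicates 2, 3 or 4 or inner ONL replicate 1, 1 was called higher, and without outer ONL replicates 3 or 4 or inner ONL replicates 1 or 2, 3 were called lower. The fit of all 31 libraries gave 1 higher and 3 lower.

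**Figure D4:**
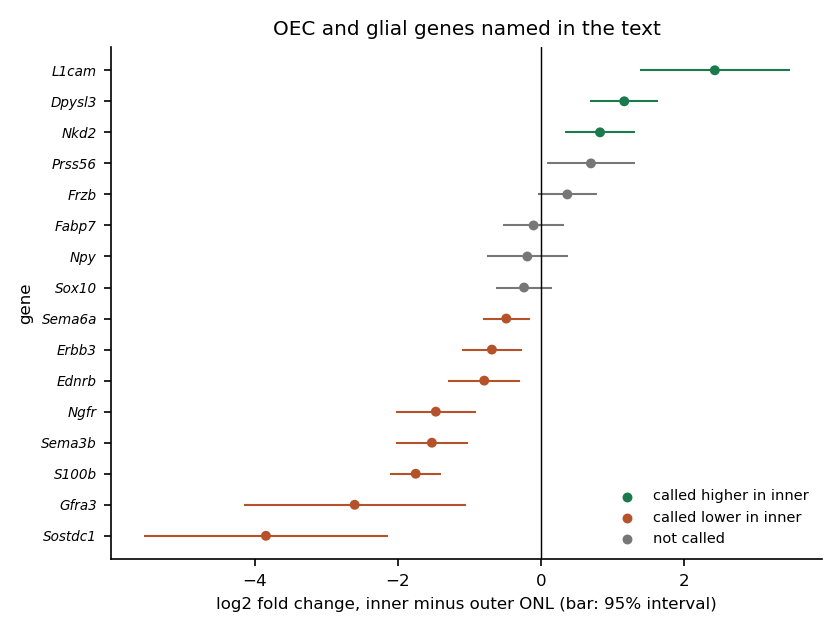
Log2 fold change, inner minus outer ONL, with its 95% interval as a bar. The genes are those named above from the OEC and Schwann cell glial list and from those the study reported in these cells. The intervals of Sox10, Fabp7 and Npy include 0, and those of S100b, Ngfr and Sema3b lie below 0.

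Nearly all tested genes of the mesenchyme, collagen and cartilage lists were called lower in inner ONL, against 7.69% of all tested genes. Of 20 genes of meninges and mesenchyme, 18 were called lower and 0 higher, with a median log2 fold change of -1.93. Of 29 collagen genes, 26 were called lower and 0 higher, with a median of -1.50. Of 11 tested genes of cartilage and bone, 10 were called lower and 0 higher, with a median of -1.62. Collagen genes of these kinds stand in several of the lists, so that the counts share members.

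Col1a1 and Col1a2 encode the chains of type I collagen. Col1a1 (chromosome 11, 94936224 to 94953042) stood at 67.9, 108, 69.6 and 116 CPM in inner and at 198, 750, 730 and 1140 CPM in outer ONL. Outer replicate 1 was the lowest of its group and still above every inner library, and the log2 fold change was -2.96 ± 0.41 (SE, adjusted p = 0.000701). Col1a2 had a log2 fold change of -2.53 ± 0.30 (SE, adjusted p = 0.000394). Col3a1, the gene of a fibrillar collagen found with type I, had means of 808 CPM in inner and 3494 CPM in outer ONL. Col6a1 and Col5a1, genes of a beaded-filament and a fibrillar collagen, had log2 fold changes of -1.94 and -1.70. Col26a1 was lower by less but with little spread, at 57.4 to 63.2 CPM in inner and 130 to 212 CPM in outer ONL (log2 fold change -1.51 ± 0.17, SE, adjusted p = 0.000389). Dcn, which encodes the collagen-binding proteoglycan decorin, stood at 122, 261, 151 and 378 CPM in inner and 801, 1279, 1604 and 1585 CPM in outer ONL. That was a log2 fold change of -2.53 ± 0.34 (SE, adjusted p = 0.000595), with no overlap.

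The 15 genes with the largest fall, chosen as for the rises, were Matn1, Mgp, Cnmd, Angptl7, Alx1, Col14a1, Bmp3, Smoc2, Fbln5, Col8a2, Ogn, Fbln7, Col8a1, Aspn and Itgbl1. Except for Alx1, a homeobox gene of facial mesenchyme, these encode secreted proteins. Matn1, Mgp and Cnmd encode proteins of cartilage: matrilin 1, matrix Gla protein and chondromodulin. Matn1 (chromosome 4, 130944385 to 130955475) stood at 0.0621, 0.442, 0.297 and 0.115 CPM in inner and at 1.39, 31.4, 31 and 26.6 CPM in outer ONL. Outer replicate 1 held far less than the other outer libraries but more than any inner library. The log2 fold change was -6.64 ± 0.89 (SE, adjusted p = 0.000584), in which the inner level rests on 1 to 6 reads a library. For Mgp the levels were 0.311 to 1.85 CPM in inner and 5.91, 76.7, 68.0 and 38.2 CPM in outer ONL, a log2 fold change of -5.39 ± 0.71 (SE, adjusted p = 0.000582). Cnmd had means of 1.83 and 41.2 CPM, again with outer replicate 1 the lowest of its group, at 5.98 CPM. Fbln7, a fibulin gene, had the smallest standard error of the 15, with a log2 fold change of -3.39 ± 0.34 (SE, adjusted p = 0.000304). The small leucine-rich proteoglycan genes Ogn and Aspn had -3.39 and -3.19, and the genes of type VIII collagen, Col8a1 and Col8a2, had -3.26 and -3.59.

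Cartilage genes summed to 301 to 425 CPM in inner ONL and to 477, 931, 1198 and 1225 CPM in outer replicates 1 to 4. The meninges and mesenchyme list summed to 1754 to 3305 CPM in inner and 7481 to 13249 CPM in outer ONL, without overlap. The part of these levels in the result of any gene above was not tested. Within the cartilage list, Col9a1, a collagen gene of cartilage, had means of 10.9 and 49.9 CPM, and Cytl1, a secreted gene of cartilage, had 3.49 and 24.3 CPM. Col11a1 had 53.2 and 125 CPM. Tfap2b, a transcription factor gene, was among those the study saw in mesenchyme near the ONL. It had a log2 fold change of -2.27 ± 0.36 (SE, adjusted p = 0.00124). Of 21 genes of that group, 9 (42.9%) were called lower and 1 (4.76%) higher. Of 23 tested genes that the study saw in the olfactory bulb, 14 (60.9%) were called higher and 4 (17.4%) lower. Among all tested genes 10.3% were called higher and 7.69% lower. In the fit of all 31 libraries the bulb genes were called 5 higher and 1 lower. These groups too were chosen by the study on these samples.

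Of 17 genes of laminins and other basement membrane proteins, 8 (47.1%) were called lower in inner ONL and 1 (5.88%) higher. Among all tested genes these shares were 7.69% and 10.3%. The median log2 fold change of the 17 was -0.63. Sparc, which encodes a collagen-binding matrix protein, stood at 1096, 1011, 1320 and 1191 CPM in inner and 1989, 2562, 2568 and 2549 CPM in outer ONL, a log2 fold change of -1.07 ± 0.15 (SE, adjusted p = 0.000718). Nid2, a nidogen gene, had -1.0 and Lama2, the laminin chain of muscle and peripheral nerve, had -2.44. Without inner ONL replicate 3, 5 of the 17 genes were called lower.

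Of 16 endothelial genes, 9 (56.2%) were called lower and 1 (6.25%) higher, against 7.69% and 10.3% of all tested genes. The median log2 fold change of the 16 was -0.72. Emcn, an endothelial sialomucin gene, had means of 30.7 and 70.6 CPM and a log2 fold change of -1.20 ± 0.17 (SE, adjusted p = 0.000740). Ramp2, a receptor component for adrenomedullin, Egfl7, a secreted endothelial gene, and Esam, a junction gene, had -1.05, -0.93 and -0.66. Mfsd2a, a lipid transporter gene of the blood-brain barrier, was the gene called higher, by 0.67 ± 0.20 (SE, adjusted p = 0.0317), and lost its call when any library but outer ONL replicate 1 or inner ONL replicate 4 was left out. Pecam1, the platelet and endothelial adhesion gene, was not called (-0.74, adjusted p = 0.0533) but was without outer ONL replicate 2 or inner ONL replicate 4. With a library left out, 6 to 12 of the 16 genes were called lower, and 2 in the fit of all 31 libraries.

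Of 12 genes of mural cells, 6 were called lower and 0 higher. The contractile genes of smooth muscle Myh11, Tagln and Des had log2 fold changes of -3.85, -2.27 and -1.05. Acta2, the smooth muscle actin gene, stood at 2.26 CPM in outer replicate 1 and at 68.2 to 76.6 CPM in the other outer libraries, against 0.497 to 12.9 CPM in inner ONL. Its log2 fold change was -3.41 ± 0.92 (SE, adjusted p = 0.0208), with the call lost without inner ONL replicate 2 or 3. Without either of these libraries 3 of the 12 mural genes were called, and 2 in the fit of all 31 libraries.

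Of 14 genes of macrophages and microglia, 4 (28.6%) were called lower and 0 higher by edgeR. Among all tested genes these shares were 7.69% and 10.3%. Mrc1 and Pf4, genes of macrophages at the borders of the brain, had log2 fold changes of -2.14 and -2.54. Without inner ONL replicate 3, 7 of the 14 were called lower. Mrc1 stood at 3.98 to 9.17 CPM in inner and 20.7 to 40.5 CPM in outer ONL, without overlap. Fcer1g and Tyrobp, adaptor genes of myeloid receptors, had -1.43 and -0.87, and Tyrobp lost its call without inner ONL replicate 1. The microglial genes Cx3cr1 and P2ry12 were not called. Cx3cr1 had means of 17.9 and 18.9 CPM with a 95% interval for the log2 fold change of -0.45 to 0.29. P2ry12 had 17.8 and 10.8 CPM (log2 fold change 0.72, adjusted p = 0.0668), was called higher in inner ONL by DESeq2, and was called without outer ONL replicate 1 or inner ONL replicate 4. Of 8 red cell genes, 7 (87.5%) were called lower, against 7.69% of all tested genes. The highest library was outer replicate 1, where the list summed to 7894 CPM. The list summed to 2664 to 4707 CPM in the other outer libraries and 1519 to 2907 CPM in inner ONL. The globin genes Hba-a1 (-1.18), Hba-a2 (-1.47), Hbb-bt (-1.03) and Hbb-bs (-1.14) have near-identical copies, so their separate values are uncertain. Without outer ONL replicate 1 or inner ONL replicates 2 or 4, 2 red cell genes were called lower, without outer ONL replicate 3 or inner ONL replicate 1, 3 were, and 0 were in the fit of all 31 libraries. The part of blood in the other results was not tested. Hba-a1 lost its call without inner ONL replicate 2, Hbb-bt without outer ONL replicate 1 or inner ONL replicates 1, 2 or 4, and Hbb-bs without these or outer ONL replicate 3.

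**Figure D5:**
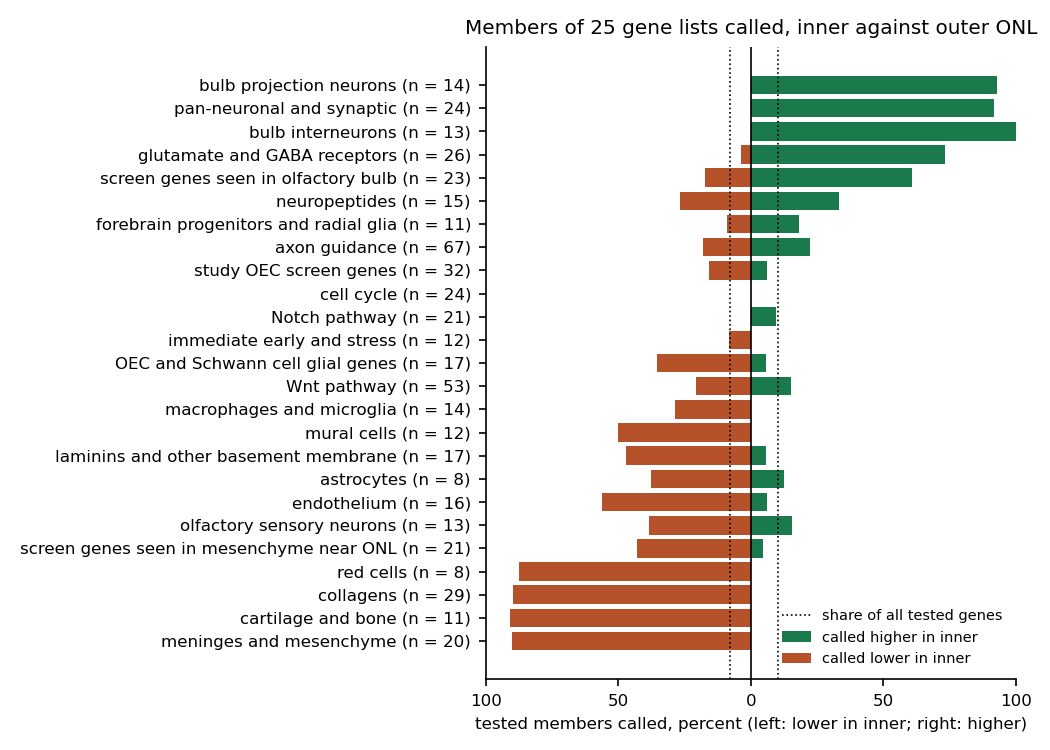
Percent of the tested members of 25 gene lists called higher (right) or lower (left) in inner ONL, with the number tested beside each name and dotted lines at the shares of all tested genes, 10.3% and 7.69%. The neuronal lists have the longest bars on the right, and the mesenchyme, cartilage, collagen and red cell lists the longest on the left.

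Of 13 tested olfactory sensory neuron genes, 2 (15.4%) were called higher in inner ONL and 5 (38.5%) lower. Among all tested genes these shares were 10.3% and 7.69%. Omp, the marker gene of mature sensory neurons, stood at 6.34, 3.53, 3.34 and 3.75 CPM in inner replicates 1 to 4 and between 9.72 and 14.1 CPM in the outer libraries. The groups did not overlap, with a log2 fold change of -1.52 ± 0.27 (SE, adjusted p = 0.00219). Gng8, a G protein subunit gene of immature sensory neurons, and Stoml3, a stomatin-like gene of their cilia, had -1.24 and -1.89. Ebf1, a transcription factor gene of sensory neurons and also of mesenchyme, had -1.23 and lost its call without inner ONL replicate 3. Ncam2, an adhesion gene of a subset of olfactory axons, was higher in inner ONL, at 37.8 to 44.3 CPM against 24.4 to 30 CPM, a log2 fold change of 0.61 ± 0.16 (SE, adjusted p = 0.0148). The other gene called higher was Calb2, described above with the bulb interneurons. Without inner ONL replicate 3, 3 of the 13 were called lower, and in the fit of all 31 libraries 1 was called higher and 1 lower. The list summed to 416 to 479 CPM in inner and 348 to 406 CPM in outer ONL. Without Calb2, a sum added after seeing the data, it came to 305 to 360 CPM in inner and 330 to 395 CPM in outer ONL.

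Signalling and guidance genes were called in both directions. Over all tested genes, 10.3% were called higher and 7.69% lower. Of 67 tested axon guidance genes, 15 (22.4%) were higher in inner ONL and 12 (17.9%) lower, with a median log2 fold change of 0.11. In the fit of all 31 libraries 7 were higher and 6 lower. Sema3e, a secreted semaphorin gene, stood at 17.5, 36.8, 10.5 and 22.0 CPM in inner and 2.85, 3.64, 2.13 and 5.53 CPM in outer ONL (log2 fold change 2.61 ± 0.39, SE, adjusted p = 0.000969). The other secreted class 3 semaphorin genes that were called went the opposite way, with -2.35 for Sema3c, -1.53 for Sema3b, -1.52 for Sema3g and -1.26 for Sema3d. The ephrin receptor genes Epha3 and Epha5 had 2.91 and 2.36, the Slit receptor gene Robo2 had 2.12 and the netrin receptor gene Unc5d had 4.16. Plxnb3, a semaphorin receptor gene, was at 0 to 0.435 CPM in inner and 1.24 to 5.70 CPM in outer ONL, a log2 fold change of -4.34 ± 0.79 (SE, adjusted p = 0.00244).

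Of 53 tested Wnt pathway genes, 8 (15.1%) were higher and 11 (20.8%) lower, against 10.3% and 7.69% of all tested genes. The median log2 fold change was -0.33. The ligand gene Wnt7a was at 8.47 to 11.6 CPM in inner and 0.146 to 2.31 CPM in outer ONL, a log2 fold change of 2.72 ± 0.50 (SE, adjusted p = 0.00245). Lgr6, a receptor gene for R-spondins, had 1.27. Of the secreted modulators, Rspo1, an activator, was lower with -3.36, and the inhibitors Sfrp1, Sfrp2 and Dkk2 with -2.65, -3.28 and -3.43. The other 7 of 11 tested secreted modulators of the R-spondin, Sfrp, Dkk and Wif families were not called, with log2 fold changes of -1.61 to 0.47. Sfrp1 stood at 4.78, 14.6, 4.83 and 12.7 CPM in inner and at 18.8, 81.3, 72.8 and 58.8 CPM in outer ONL. Ccn4, a secreted matrix gene induced by Wnt and formerly named Wisp1, had -2.90. With a library left out, 2 to 8 Wnt genes were called higher and 8 to 14 lower. The higher count was 2 without outer ONL replicate 2, 3 without inner ONL replicate 3, 4 without outer ONL replicate 4 or inner ONL replicates 1 or 4, and 5 without outer ONL replicate 3, and 0 were called higher in the fit of all 31 libraries.

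Of 21 tested Notch pathway genes, 2 (9.52%) were called higher and 0 lower, against 10.3% and 7.69% of all tested genes. The share called higher was thus near that of all genes. Those called were the ligand genes Dll1 (1.61) and Dll3 (1.57). Dll3 lost its call without outer ONL replicates 2 or 3 or inner ONL replicate 4. The receptor gene Notch1 had means of 67.5 and 73.6 CPM, with a 95% interval for its log2 fold change of -0.47 to 0.23. By DESeq2, 3 of these genes were called higher and 0 lower, and by edgeR 5 had an unadjusted p under 0.05, while 0 were called in the fit of all 31 libraries.

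Neuropeptide genes were called in both directions, 5 (33.3%) higher and 4 (26.7%) lower of 15 tested. The shares of all tested genes were 10.3% and 7.69%. Beside Nts, the tachykinin gene Tac1 rose, with 28.3, 80.2, 59.5 and 29.0 CPM in inner and 1.46, 9.40, 1.93 and 7.50 CPM in outer ONL (log2 fold change 3.26 ± 0.55, SE, adjusted p = 0.00164). Gal, the galanin gene, had 2.35. Without outer ONL replicates 1 or 3 or inner ONL replicates 2, 3 or 4, 3 neuropeptide genes were called higher. The neuromedin B gene Nmb had 0.87. Of the fits that left out a library it kept its call in that without outer ONL replicate 2, and it lost it with the replicate number as a block (adjusted p = 0.0645) and with no filter on low counts (0.069). Penk, the proenkephalin gene, went the other way. It stood at 8.26, 10.7, 7.58 and 17.9 CPM in inner and at 25.3, 95.6, 114 and 97.1 CPM in outer ONL, a log2 fold change of -2.90 ± 0.42 (SE, adjusted p = 0.000766). Outer replicate 1 held the least Penk of its group. It also had the group's lowest sums of the cartilage, mesenchyme, collagen and pan-neuronal lists, and a link was not tested. The genes of calcitonin, Calca, and of the CART peptide, Cartpt, had -2.37 and -1.82. Nppc, the gene of C-type natriuretic peptide, had -1.84. Of the fits that left out a library it kept its call in that without outer ONL replicate 1, and it lost it under total-count scaling (adjusted p = 0.0617), upper quartile scaling (0.0506) and the replicate block (0.0592). In the fit of all 31 libraries 1 neuropeptide gene was called higher and 2 lower.

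Immediate early and stress genes, which can respond to handling of tissue, were mostly not called. Of 12 tested, 0 were called higher and 1 (8.33%) lower by both edgeR and DESeq2, and by edgeR 1 had an unadjusted p under 0.05. The share called lower was near the 7.69% of all tested genes. Without outer ONL replicates 2 or 3 or inner ONL replicates 2 or 3, 0 were called lower, as in the fit of all 31 libraries. Gadd45b, a stress-response gene, had -1.10 and lost its call in these fits and with the replicate number as a block (adjusted p = 0.0593). Fos had means of 4.16 and 5.51 CPM, with an interval of -1.16 to 0.35.

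The same genes were set beside the olfactory nerve and trigeminal nerve libraries of E16.5, on a scale common to all 15 libraries of that stage. For the 15 genes with the largest rise in inner ONL, all 4 olfactory nerve and all 3 trigeminal nerve libraries lay below every inner ONL library. These genes were picked for a high inner level, which favours that order in advance. Of the 15 genes with the largest fall, 14 were higher in all 4 olfactory nerve libraries than in any outer ONL library. The exception was Angptl7, a secreted angiopoietin-like gene, whose levels overlapped. Matn1 had a median of 97.3 CPM in olfactory nerve and 6.51 CPM in the 3 trigeminal nerve libraries, and Alx1 had 197 and 8.26 CPM. In trigeminal nerve, 8 of these 15 genes were higher in all 3 libraries than in any outer ONL library, 3 were lower and 4 overlapped. Smoc2, a secreted matrix gene, had a trigeminal median of 959 CPM and Ogn 771 CPM. These comparisons were not tested and are descriptions of levels.

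Promoter windows of the leading genes are shown to give the sequence at which their transcription starts. They run from 250 bases before to 50 bases after the start, in RefSeq on GRCm38.p6, written in the direction of the gene. Nts and Neurod6 stand for the genes higher in inner ONL, and Matn1 and Ogn for those lower. Capitals mark matches on either strand to 3 short motifs, the E-boxes CAGCTG and CAGATG, to which proteins of the basic helix-loop-helix family such as Neurod6 can bind, and the TATA box TATAAA. Matches of TATAAA on opposite strands can overlap.
Nts, chr10:102490369-102490668, minus strand: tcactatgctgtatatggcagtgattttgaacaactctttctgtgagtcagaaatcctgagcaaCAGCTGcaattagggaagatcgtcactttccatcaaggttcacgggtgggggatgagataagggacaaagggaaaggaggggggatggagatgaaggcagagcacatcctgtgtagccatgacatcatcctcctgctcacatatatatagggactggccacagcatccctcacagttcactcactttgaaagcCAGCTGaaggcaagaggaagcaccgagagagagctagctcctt
Neurod6, chr6:55681214-55681513, minus strand: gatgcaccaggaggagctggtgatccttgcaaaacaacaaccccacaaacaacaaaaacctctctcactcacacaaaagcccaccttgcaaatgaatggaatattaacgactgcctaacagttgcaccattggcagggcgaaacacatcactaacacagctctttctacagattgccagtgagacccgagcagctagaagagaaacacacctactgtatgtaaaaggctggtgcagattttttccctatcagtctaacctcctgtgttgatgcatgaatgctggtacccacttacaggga
Matn1, chr4:130944135-130944434, plus strand: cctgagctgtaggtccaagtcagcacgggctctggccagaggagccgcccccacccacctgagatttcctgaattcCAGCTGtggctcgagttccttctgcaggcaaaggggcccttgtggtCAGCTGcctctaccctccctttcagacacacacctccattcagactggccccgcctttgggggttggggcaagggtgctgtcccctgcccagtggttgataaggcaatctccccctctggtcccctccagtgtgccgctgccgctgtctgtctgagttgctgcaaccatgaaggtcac
Ogn, chr13:49607765-49608064, plus strand: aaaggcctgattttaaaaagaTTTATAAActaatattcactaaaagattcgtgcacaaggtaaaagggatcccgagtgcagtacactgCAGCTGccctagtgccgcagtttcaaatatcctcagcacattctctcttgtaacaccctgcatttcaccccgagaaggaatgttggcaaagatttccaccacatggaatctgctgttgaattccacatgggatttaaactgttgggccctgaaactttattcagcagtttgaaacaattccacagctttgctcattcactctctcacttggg

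Of the 15717 tested genes, 11386 had a promoter window in this table. CAGCTG stood in 15.2% of these windows, in 18.8% of those of genes higher in inner ONL and in 17.6% of those lower. CAGATG stood in 11.7% of all, 13.3% of the higher and 15.4% of the lower. TATAAA stood in 6.98% of all, 8.16% of the higher and 10.5% of the lower. A match describes letters in a window and is not shown to be a bound site.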

How the data were processed

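RNA sequencing was done on tissue taken by laser microdissection, and the deposited table holds raw read counts per gene, which the authors made from mm10 alignments. The submitters' processing notes name TopHat2 2.1.0, HTSeq and DESeq2 3.7, the last a version number as given there. The table holds no comparisons of the authors, and 1 row that names no gene was left out.

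Counts of the 8 E16.5 ONL libraries were filtered with filterByExpr, scaled by TMM and tested with edgeR 4.0.16 (quasi-likelihood test, 2-sided, Benjamini-Hochberg adjustment over all tested genes, threshold 0.05) in R 4.3.3 with limma 3.58.1. Only these libraries entered the fit, which compares these groups alone, and fits with the other libraries were alternatives. By earlier results, not shown here, labels of the libraries of earlier stages conflict with the study's means. Those libraries were therefore kept out of the estimate of spread. DESeq2 1.42.0 was another alternative. Tables and plots were made with Python 3.11.15, pandas 2.3.3, NumPy 2.4.6 and matplotlib 3.10.9. Steps across genes were tested on simulated data.

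The comparison, its members and the 25 gene lists were chosen with earlier results of these data known, and 499 of 500 list entries matched a gene. Genes were named by a rule: the 15 largest changes in each direction among called protein-coding genes with at least 20 CPM and no overlap, up to 4 called members of each list in each direction, the first gene of each list, and Sox10, Npy and Prss56. Fabp7, Frzb, Erbb3, Ednrb, Cdhr1, Reln, Gap43, Col3a1, Cx3cr1, P2ry12, Robo2, Dkk2 and Sema3c were named after their values were seen. Some genes that the rule names are not reported here. Intervals are 95% intervals of the fit. Depth limits statements on genes with few reads, and a count of 3 reads was taken as the floor.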

Additional observations from a re-analysis of the deposited data

Results flagged for a closer look

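In 17 of 276 groups of 4 libraries tested (6.16%), the highest or lowest library stood apart from the other 3 by Dixon's criterion. Chance alone flags about 1 in 20 groups.

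Inner replicate 2 was highest for Cdh7 (47.0 CPM against 20.7 to 25.1), Amer3 (27.5 against 18.8 to 20.1), Gabra3 (51.5 against 22.1 to 25.7), Slc1a2 (85.2 against 35.1 to 43.4) and Sostdc1 (1.69 against 0.0743 to 0.346). It was lowest for Esam, at 53.6 CPM against 71.7 to 75.2.

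Outer replicate 1 was lowest for Matn1 (1.39 CPM against 26.6 to 31.4), Sparc (1989 against 2549 to 2568), Lama2 (28.0 against 56.0 to 56.3) and Acta2 (2.26 against 68.2 to 76.6). Outer replicate 3 was highest for Pecam1, at 99.9 CPM against 55.3 to 61.6.

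Inner replicate 1 was highest for Omp (6.34 CPM against 3.34 to 3.75) and Nmb (8.02 against 5.88 to 6.24), and lowest for Mki67 (148 against 256 to 275). Inner replicate 4 was highest for Alx1 (3.81 against 0.684 to 0.883) and Egfl7 (34.2 against 23.4 to 25.3), and lowest for Col9a1 (9.92 against 11.2 to 11.4).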

How the results depend on the processing

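The 138 genes named in the text were refitted under the alternatives, 8 of which left out a library. With the stricter filter 117 of them were tested. Of the 127 that were called, 73 kept call and direction in every fit and 54 lost the call in at least 1. The fit of all 31 libraries accounted for most of these (52), and it called 1658 genes, 1007 higher and 651 lower, in place of 2831, 1623 and 1208. That fit takes in libraries of earlier stages and other tissue, and the cause of the lost calls was not tested. DESeq2 called 3206 genes and lost 0 of the named calls. Requiring a log2 fold change of at least 1 beside the adjusted p left 738 genes lower in inner ONL, fewer by construction. With each library left out, 2111 to 2759 genes were called, 1213 to 1595 higher and 898 to 1225 lower.

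For genes that were not called, the log2 fold change with a library left out ran from -0.23 to 0.10 for Fabp7 and -0.33 to 0.11 for Npy, each highest without outer ONL replicate 1. For Mki67 it ran from -0.18 to 0.06, highest without inner ONL replicate 1.

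Deviations of same-numbered inner and outer libraries correlated at 0.252, 0.297, -0.138 and -0.192 over 10258 genes. Replicate 3 was the only number with high Xist and Ddx3y at 0, in both parts, as pairing by number would give. Sex alone does not identify an embryo, so the numbers were not shown to pair the libraries. With the replicate number as a block, 2721 genes were called, 1598 higher and 1123 lower. Genes with few reads, such as Matn1 in inner ONL, are limited by depth.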
